A study of Mus musculus with 16 samples.

Results

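Cxcl1, Cxcl2, Cxcl16, Xcl1 and Cx3cl1, the chemokines outside the CC class whose signal is followed here, and Cx3cr1, the receptor of the Cx3cl1 protein, were described in mouse mast cells given an agonist antibody against TIM-3. The genes were chosen by name: every array probe that was not a control and carried one of the 6 gene names was taken. This gave 9 probes of 41174, and 8 of the 9 passed the filter on dim probes, so that all 6 genes were among the 17101 genes tested. Each gene is represented by its brightest probe, and levels of different genes are not compared, because each probe has its own response.

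Mast cells were grown from bone marrow for more than 4 weeks in RPMI with 10% FCS, IL-3 (5 ng/ml) and SCF (40 ng/ml), to more than 90% FcERIa+/c-kit+ cells that the labels call immature. TIM-3 is an immune receptor on the cell surface. Cells received a goat antibody against mouse TIM-3 or, as its control, goat IgG, both at 15 ug/ml. Resting cells were given neither IgE nor antigen. Activated cells were first loaded with anti-DNP IgE (5 ug/ml) for 1 h and then received the antigen DNP-HSA (100 ng/ml) together with antibody or IgG. RNA was collected after 2 h or 16 h. The state of the cells and the time make 4 groups, with 4 two-colour arrays each and 16 in all. On every array the RNA of anti-TIM-3-treated cells was labelled with Cy5 and the RNA of IgG-treated cells with Cy3, so IgG is the control throughout. No array exchanged the dyes: a probe's dye bias and the effect of the antibody cannot be told apart in any one group, whereas a bias of the same size everywhere drops out when groups are subtracted. The cells are a culture grown from marrow and not a tissue population. The labels do not say whether the replicates came from separate cultures, so p-values measure only how far these samples spread, and that spread may be technical.

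Chemokines are secreted proteins that direct the movement of leukocytes through G protein-coupled receptors. CXCL1 and CXCL2 attract neutrophils through CXCR2, and their genes are classical early targets of inflammatory signalling. XCL1, or lymphotactin, acts on XCR1, a receptor of cross-presenting dendritic cells, and is best known from T and NK cells. CXCL16 and CX3CL1, or fractalkine, are unusual in being made as membrane-anchored proteins on a mucin stalk, which metalloproteases of the ADAM family can cut to release the chemokine. CX3CR1, the receptor of fractalkine, is best known on monocytes, macrophages and microglia. Mast cells crosslinked through their IgE receptor are known to make chemokines within hours.

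The stretches of 250 bases before the start of 4 of these genes are shown because these are the 4 whose ratio changed most in activated cells at 2 h, and because the genes of the CXC pair carry the same motif. They are RefSeq promoters on GRCm38.p6, printed 5' to 3' on the gene's own strand and ending at the base before the start. Capitals mark matches of a kB motif (GGG, any 2 bases, then TTTCC, on either strand) in Cxcl1, at chr5:90890995-90891244 on the plus strand, and in Cxcl2, at chr5:90903649-90903898 on the plus strand. They mark the NFAT core (GGAAA on either strand) in Xcl1, at chr1:164935523-164935772 on the minus strand, and TATAAA in Cx3cl1, at chr8:94771930-94772179 on the plus strand.
Cxcl1: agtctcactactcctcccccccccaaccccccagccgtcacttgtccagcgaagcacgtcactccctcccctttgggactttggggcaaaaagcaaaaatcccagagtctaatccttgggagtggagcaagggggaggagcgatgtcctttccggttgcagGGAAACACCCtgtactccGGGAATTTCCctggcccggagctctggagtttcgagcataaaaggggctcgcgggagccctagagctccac
Cxcl2: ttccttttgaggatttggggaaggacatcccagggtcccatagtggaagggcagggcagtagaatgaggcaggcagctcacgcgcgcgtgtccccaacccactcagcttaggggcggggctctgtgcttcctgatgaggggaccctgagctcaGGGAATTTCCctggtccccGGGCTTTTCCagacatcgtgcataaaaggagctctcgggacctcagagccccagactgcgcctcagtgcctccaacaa
Xcl1: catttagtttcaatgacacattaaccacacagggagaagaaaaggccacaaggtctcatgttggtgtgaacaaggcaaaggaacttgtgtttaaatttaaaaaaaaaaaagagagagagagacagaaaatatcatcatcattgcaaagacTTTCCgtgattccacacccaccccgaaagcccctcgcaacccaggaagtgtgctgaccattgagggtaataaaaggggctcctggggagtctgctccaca
Cx3cl1: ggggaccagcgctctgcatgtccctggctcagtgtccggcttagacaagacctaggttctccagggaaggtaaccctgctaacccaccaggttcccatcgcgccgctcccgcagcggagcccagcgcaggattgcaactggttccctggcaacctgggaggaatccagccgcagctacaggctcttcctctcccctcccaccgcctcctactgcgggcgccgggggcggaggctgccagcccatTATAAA

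Of the 27025 promoters of this length in the RefSeq table, 1.4% held a kB match and 6 held more than 1. Cxcl1 and Cxcl2 are among those 6, with 2 matches each. The matches lay 89 to 80 and 71 to 62 bases before the start of Cxcl1, and 97 to 88 and 78 to 69 bases before the start of Cxcl2. One of them had the same letters in both genes, GGGAATTTCC, and lay inside the longest run that the promoters share, gggaatttccctgg, of 14 bases. The NFAT core is held by 55.3% of promoters, and it lies inside each of these kB matches, so the motifs are not separate there. The Xcl1 promoter had 1 NFAT core, 100 to 96 bases before the start, and no match of the kB motif, of an AP-1 motif (TGANTCA, in 6.87% of promoters) or of a CRE (TGACGTCA, in 1.54%). Cx3cl1 had none of these, but TATAAA (in 13% of promoters) 6 to 1 bases before the start and a GGGCGG box (in 32.4%) 27 to 22 bases before it. The promoter of Cx3cr1 held a single NFAT core, 46 to 42 bases before its start, and Cxcl16 is not in the table. A match says only that the letters are there. On the chromosome, Cxcl1 and Cxcl2 are neighbouring protein-coding genes, Cx3cl1 lies between the CC chemokine genes Ccl22 and Ccl17, and Cx3cr1 lies beside the CC chemokine receptor gene Ccr8.

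The arrays had 52.7% to 60.8% of spots well above background in Cy3, 53.7% to 66.3% in Cy5 and 0 saturated spots. The 11 mast cell markers (Kit and Fcer1a among them) were above background on all 16 arrays, and their summed Cy3 level lay between 18.15 and 18.84 (log2). Markers of macrophages and dendritic cells were present too: 12 of 14 were tested, with summed Cy3 levels of 13.41 to 14.69 in resting and 13.50 to 14.58 in activated cells at 2 h. Tested markers of other cells numbered 5 of 10 for neutrophils, 4 of 4 for basophils, 7 of 10 for T and NK cells, 3 of 5 for B cells, 4 of 8 for endothelial cells and fibroblasts and 4 of 6 for erythroid cells and platelets. In bulk RNA, fewer cells of a type and less RNA per cell cannot be told apart.

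All levels below are log2 signals after an offset of 50 intensity units was added, which compresses the changes of dim genes. A gene is said to have risen or fallen where limma's two-sided test gave a Benjamini-Hochberg adjusted p under 0.05 over all genes tested, and ± is the SD over 4 arrays.

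IgE and antigen without anti-TIM-3 raised 3 of the ligands at 2 h. Resting cells had neither, so IgE loading and antigen cannot be told apart, and the antigen effect means both together. In IgG-treated cells, Xcl1, Cxcl2 and Cx3cl1 rose and the receptor Cx3cr1 fell, while Cxcl1 and Cxcl16 did not pass the test. These are 4 of the 6 genes, in a comparison that called 42.9% of all genes tested. For Xcl1, the log2 levels of replicates 1 to 4 were 6.30, 6.32, 6.30 and 6.16 in resting cells and 8.39, 8.64, 8.51 and 8.34 in activated cells. The groups were far apart, and the resting signal was well above background on only 1 of 4 arrays. The rise was 2.20 on the log2 scale (SE 0.07, 95% interval 2.06 to 2.34, 4.59-fold, adjusted p = 6.65e-13). For Cxcl2, the levels were 7.67, 6.43, 6.77 and 7.22 in resting cells against 9.05, 8.27, 8.37 and 8.72. The highest resting array stayed below the lowest activated one, although the resting arrays were spread widely. The rise was 1.58 (SE 0.23, interval 1.10 to 2.06, 2.99-fold, adjusted p = 2.63e-05). Cx3cl1 went from 8.83, 8.63, 8.93 and 9.02 to 10.03, 9.82, 9.90 and 9.98, again without overlap. That is a rise of 1.08 (SE 0.17, interval 0.72 to 1.44, 2.11-fold, adjusted p = 6.15e-05).

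Cx3cr1 moved the other way. Its levels at 2 h were 7.93, 8.02, 7.78 and 8.03 in resting and 7.21, 6.81, 7.02 and 6.91 in activated cells under IgG. All 4 activated arrays lay below all 4 resting ones, and the receptor fell by 0.95 (SE 0.15, 1.93-fold, adjusted p = 7.67e-05). A second Cx3cr1 probe of the same transcript was much dimmer, above background on 3, 0, 2 and 2 of the 4 IgG arrays of resting 2 h, activated 2 h, resting 16 h and activated 16 h, and changed by -0.08 (adjusted p = 0.573). Averaged over both probes the change was -0.51 and passed. Cxcl1, which was above background on 1 of 4 resting arrays and on all 4 activated arrays, differed by 0.34 (SE 0.15, adjusted p = 0.0779). The same replicate numbers deviated together in this comparison, and with the replicate number as a block the adjusted p of Cxcl1 was 0.0124, in a range of 0.0124 to 0.683 over all alternatives. Without resting replicate 1 or 4, or without activated replicate 2, Cxcl1 also passed, with differences of 0.43, 0.43 and 0.46. Cxcl16 differed by -0.11, with an interval of -0.51 to 0.29 (adjusted p = 0.687).

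The differences held within each replicate number and within the slides that carried both groups. By replicate number, the rise at 2 h was 2.09, 2.32, 2.21 and 2.18 for Xcl1, 1.38, 1.84, 1.60 and 1.5 for Cxcl2, and 1.21, 1.18, 0.96 and 0.96 for Cx3cl1. Cx3cr1 changed by -0.72, -1.21, -0.75 and -1.12. Slides 2 and 3 held both groups, and gave 2.21 and 2.12 for Xcl1, 1.00 and 1.77 for Cxcl2, 1.10 and 1.01 for Cx3cl1 and -0.92 and -0.81 for Cx3cr1. Agilent's processed signals, which carry no added offset, gave larger values: 4.59 for Xcl1, 2.54 for Cxcl2 and -1.60 for Cx3cr1. With an offset of 16 in place of 50, Xcl1 rose by 2.91. Of the T and NK cell markers, 3 of the 7 tested rose, near the share of 42.9% of all genes tested. They were Nkg7 (1.55), Lck (0.74) and Ncr1 (0.16). The summed Cy3 level of the 7 was 9.55 to 9.62 in resting and 10.18 to 10.34 in activated cells. Of the 10 listed, Cd3e, Cd4 and Nkg7 were above background on 16 of 16 arrays, Lck on 14, Cd8a on 7, Ncr1 on 6, Cd3d on 5, and Cd3g, Klrb1c and Gzma on 0. Cd3e changed by 0.03 (adjusted p = 0.682), Cd3d by 0.24 (adjusted p = 0.435), Cd8a by 0.00 (adjusted p = 0.964) and Cd4 by -0.04 (adjusted p = 0.405). The part of T and NK cells in the rise of Xcl1 was not tested. None of the 12 macrophage and dendritic cell markers was called in this comparison.

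**Figure D1:**
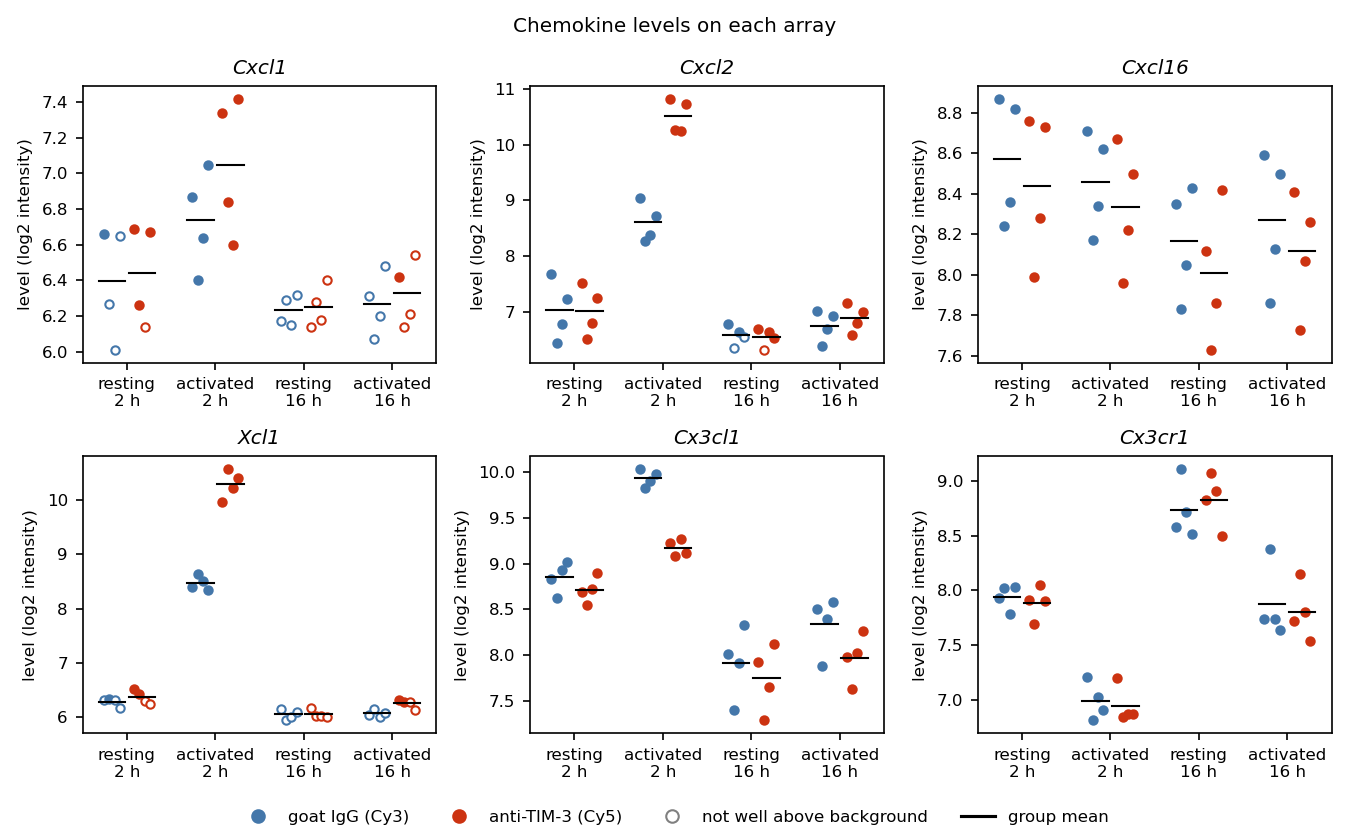
Log2 level of each gene's brightest probe (y axis) in each group (x axis), for IgG-treated cells (Cy3) and anti-TIM-3-treated cells (Cy5); points are arrays, open where the signal was not well above background, and bars the mean of 4 arrays. Cxcl2 and Xcl1 stand highest in activated cells at 2 h with anti-TIM-3 (means 10.52 and 10.30), Cx3cl1 in activated cells at 2 h with IgG (mean 9.93), and Cx3cr1 is lowest in activated cells at 2 h in both channels.

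With anti-TIM-3 added to antigen, the early chemokines parted. In activated cells at 2 h, Cxcl2 and Xcl1 rose nearly 4-fold above their antigen-induced level and Cxcl1 rose slightly. Cx3cl1 and Cxcl16 fell, and the Cxcl16 ratio was of similar size in all 4 groups. Cx3cr1 did not pass the test. These are 5 of the 6 genes, where 33.3% of all genes tested were called. The log2 ratio of anti-TIM-3 over IgG for Cxcl2 was 1.78, 1.99, 1.89 and 2.03 in replicates 1 to 4. The anti-TIM-3 levels were 10.83, 10.27, 10.25 and 10.74, so every array lay above every IgG array. The mean ratio was 1.92 (SE 0.04, 95% interval 1.83 to 2.01, 3.79-fold, adjusted p = 2.51e-15). For Xcl1 the ratios were 1.60, 1.94, 1.72 and 2.08, with anti-TIM-3 levels of 9.98, 10.58, 10.23 and 10.42. The mean was 1.83 (SE 0.06, interval 1.70 to 1.96, 3.57-fold, adjusted p = 6.86e-13). Ranked among 17101 genes, these were the 19th and 23rd highest mean ratios.

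Cx3cl1 had the lowest mean ratio of all 17101 genes in activated cells at 2 h. Its ratios were -0.82, -0.73, -0.63 and -0.87, all 4 arrays close together. The mean of -0.76 (SE 0.05, interval -0.86 to -0.66) is a 1.70-fold lower level with anti-TIM-3 (adjusted p = 2.78e-09). The anti-TIM-3 levels of 9.22, 9.08, 9.27 and 9.11 lay between the resting and the activated IgG levels. The gene ranked lowest under 11 of 13 alternatives. It ranked 14th with Agilent's processed signals (-0.87) and 4th with the slide as a block (-0.76). Under median centring in place of loess the value was -0.46, or -0.68 relative to the median of all genes, and it passed. The second Cx3cl1 probe, drawn from another sequence record, was above background on 0 of 16 IgG arrays and on 1 of 16 anti-TIM-3 arrays, so it gives no value to set beside this.

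Cxcl1 ratios were 0.47, 0.44, -0.04 and 0.37. Replicate 3 stood apart from the other arrays, and the mean was 0.31 (SE 0.06, interval 0.18 to 0.43, 1.24-fold, adjusted p = 0.000729). With Agilent's processed signals the change of Cxcl1 was 0.62 but did not pass (adjusted p = 0.0838, the highest in a range of 7.67e-07 to 0.0838 over the alternatives). Cxcl16 had ratios of -0.03, -0.21, -0.12 and -0.12, a fall of 1.09-fold (mean -0.12, SE 0.04, adjusted p = 0.037). Cx3cr1 had ratios of -0.01, 0.03, -0.15 and -0.04, with a mean of -0.04 and an interval of -0.20 to 0.11 (adjusted p = 0.687).

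In resting cells at 2 h, the mean ratios of the early chemokines lay between 0.00 and 0.09. Only Cxcl16 passed the test, which is 1 of 6 genes beside 14.0% of all genes tested. Cxcl2 ratios were -0.15, 0.08, 0.03 and 0.04, with a mean of 0.00 and an interval of -0.09 to 0.09 (adjusted p = 0.995). Xcl1 ratios were 0.21, 0.11, -0.01 and 0.07, and Cxcl1 ratios 0.03, -0.01, 0.13 and 0.01, with means of 0.09 (adjusted p = 0.356) and 0.04 (adjusted p = 0.708). Both were near background there, and with Agilent's processed signals their ratios were 0.46 for Xcl1 and 0.63 for Cxcl1, neither of which passed. Cx3cl1 had ratios of -0.14, -0.09, -0.22 and -0.12: all 4 were below 0, and the mean of -0.14 had an adjusted p of 0.0565. It passed with Agilent's processed signals (-0.19, adjusted p = 0.0359, in a range of 0.0359 to 0.186) and was 0.09 under median centring. Cx3cr1 ratios were the most spread, at -0.02, -0.33, 0.27 and -0.13 (mean -0.05, adjusted p = 0.702).

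The difference between activated and resting cells in the antibody's effect was tested directly, and there an equal dye bias cancels. At 2 h, 3 of the 6 genes passed, beside 5.58% of all genes tested. The effect on Cxcl2 was higher in activated cells by 1.92 (SE 0.06, interval 1.80 to 2.05, adjusted p = 1.23e-12) and that on Xcl1 by 1.74 (SE 0.09, interval 1.56 to 1.93, adjusted p = 4.74e-10). The effect on Cx3cl1 was lower in activated cells, by -0.62 (SE 0.07, interval -0.76 to -0.48, adjusted p = 1.03e-05). In this difference Cxcl2 and Xcl1 ranked 12th and 17th from the highest of 17100 genes, and Cx3cl1 13th from the lowest. Slides 2 and 3, which held both groups, gave 2.03 and 1.93 for Cxcl2, 1.56 and 1.91 for Xcl1, and -0.63 and -0.53 for Cx3cl1. The 3 differences passed under all 17 alternatives, with ranges of 1.87 to 2.19 for Cxcl2, 1.59 to 2.11 for Xcl1 and -0.69 to -0.55 for Cx3cl1. Cxcl1 did not pass (0.27, adjusted p = 0.0776). Without activated 2 h replicate 3 its difference was 0.38 and passed (adjusted p = 0.00016, in a range of 0.00016 to 0.996). For Cxcl16 and Cx3cr1 the difference was 0.01 in each case (adjusted p = 0.956 and 0.984).

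**Figure D2:**
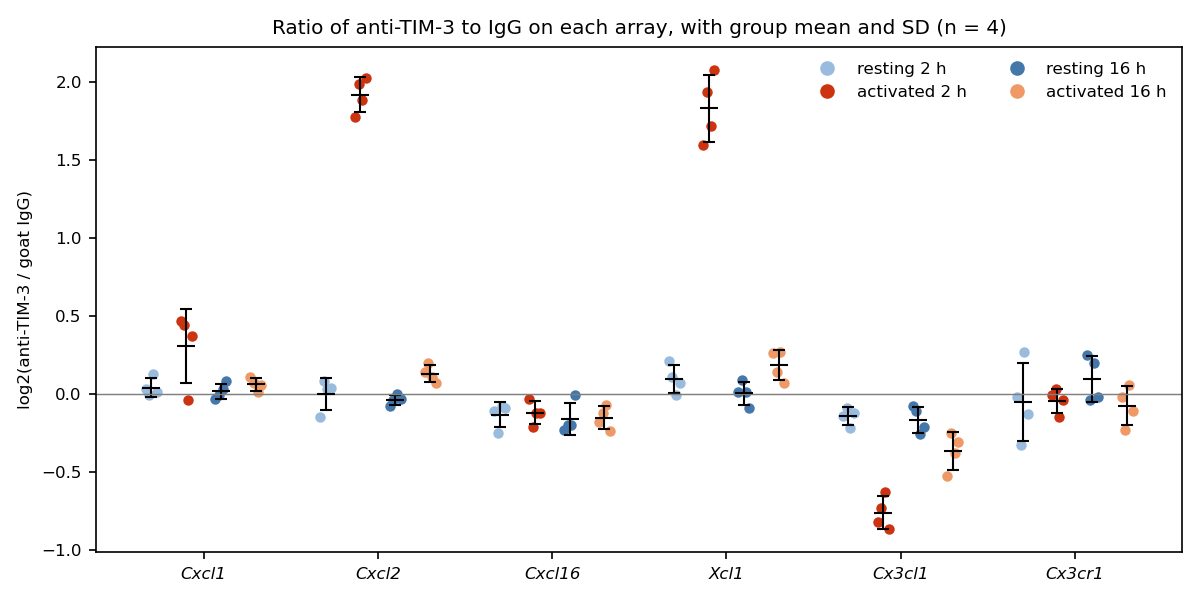
Log2 ratio of anti-TIM-3 over IgG (y axis) for the 6 genes (x axis) in the 4 groups, shown by colour; points are arrays, bars the mean of 4 arrays with its SD, and the line at 0 marks equal levels. In activated cells at 2 h Cxcl2 (1.78 to 2.03) and Xcl1 (1.60 to 2.08) lie far above 0, while Cx3cl1 (-0.87 to -0.63) lies below 0 on the same arrays.

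Read within the anti-TIM-3 channel, the same arrays gave an antigen response of another shape. At 2 h Xcl1, Cxcl2, Cxcl1 and Cx3cl1 rose and Cx3cr1 fell, 5 of 6 genes in a comparison that called 45.4% of all genes tested. Xcl1 went from 6.51, 6.42, 6.29 and 6.23 in resting cells to the levels near 10 given above, a rise of 3.94 (SE 0.10, 15.3-fold, adjusted p = 7.63e-14). The resting signal of Xcl1 was above background on 2 of 4 of these arrays. Cxcl2 went from 7.52, 6.51, 6.79 and 7.25 to above 10 on every array, a rise of 3.5 (SE 0.20, 11.3-fold, adjusted p = 5.3e-10). Cxcl1 rose by 0.61 (SE 0.17, 1.52-fold, adjusted p = 0.0071), and its groups overlapped, with 6.69, 6.26, 6.14 and 6.67 in resting and 7.34, 6.84, 6.60 and 7.42 in activated cells. For Cx3cl1 the rise was only 0.46 (SE 0.15, 1.37-fold, adjusted p = 0.0209), from 8.69, 8.55, 8.72 and 8.90. Cx3cr1 fell by 0.94 (SE 0.13, 1.92-fold, adjusted p = 2.31e-05), from 7.91, 7.69, 8.05 and 7.90 to 7.20, 6.84, 6.87 and 6.87. Comparisons of the same groups in both channels share their arrays, so these values are set beside the IgG values and not counted as a repeat.

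The rise of Cx3cl1 in this channel was 0.53, 0.54, 0.55 and 0.21 by replicate number, and its call was not stable. It no longer passed without resting 2 h replicate 2 (0.40), without activated 2 h replicate 3 (0.42), with Agilent's processed signals (0.57) or without normalization between arrays (0.32). Cxcl1 did not pass without normalization between arrays either (0.38). By slide, the antigen effect with anti-TIM-3 at 2 h was 3.03 and 3.70 for Cxcl2, 3.78 and 4.03 for Xcl1, 0.46 and 0.47 for Cx3cl1 and -0.89 and -1.18 for Cx3cr1. Agilent's processed signals gave 4.68 for Cxcl2, 6.19 for Xcl1, 1.96 for Cxcl1 and -1.64 for Cx3cr1, and an offset of 16 gave 4.70 for Xcl1.

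**Figure D3:**
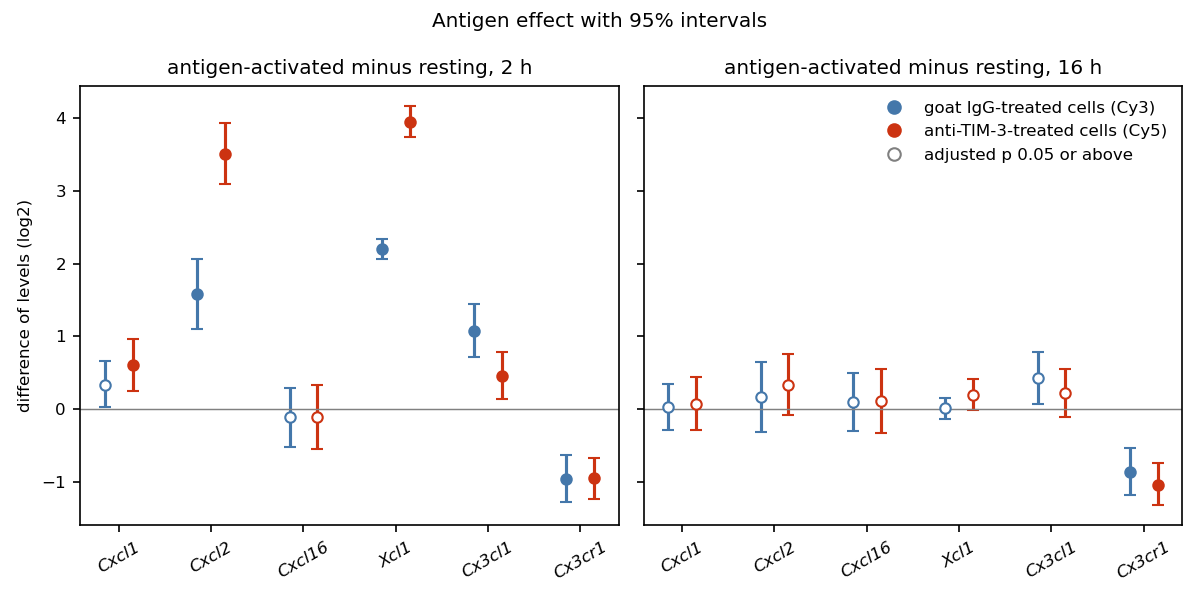
Antigen effect at 2 h and 16 h (activated minus resting, log2; y axis) for each gene in IgG-treated and anti-TIM-3-treated cells; symbols are limma estimates from 4 arrays a group, open where the adjusted p was 0.05 or above, and bars their 95% intervals. At 2 h the anti-TIM-3 value is above the IgG value for Cxcl2 (3.5 against 1.58) and Xcl1 (3.94 against 2.20), below it for Cx3cl1 (0.46 against 1.08), and nearly the same for Cx3cr1 (-0.94 against -0.95).

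By 16 h the signals of Xcl1 and Cxcl1 were near background again, and that of Cxcl2 was far below its 2 h level. In IgG-treated activated cells, Xcl1 fell from 2 h to 16 h by at least 5.16-fold (adjusted p = 5.04e-14), to 6.04, 6.14, 6.0 and 6.06, above background on none of the 4 arrays. Cxcl2 fell by 1.85 (3.62-fold, adjusted p = 2.23e-06), to 7.01, 6.38, 6.68 and 6.92. Cxcl1 fell by at least 1.39-fold (adjusted p = 0.0109), and its 2 h and 16 h arrays overlapped. Cx3cl1 fell by 1.59 (3.01-fold, adjusted p = 4.16e-07), to 8.51, 7.88, 8.40 and 8.58, and Cx3cr1 rose by 0.89 (1.85-fold, adjusted p = 8.34e-05). These are 5 of 6 genes where 60.0% of all genes were called. Cxcl16 differed by -0.19 (adjusted p = 0.407), and passed with the replicate number as a block (adjusted p = 0.00362, in a range of 0.00362 to 0.832). Slide 3, the slide with both groups, gave -2.43 for Xcl1, -1.86 for Cxcl2, -1.54 for Cx3cl1 and 0.78 for Cx3cr1. With Agilent's processed signals the falls of Xcl1, Cxcl2 and Cxcl1 were -6.14, -3.18 and -2.03, an offset of 16 gave -3.34 for Xcl1, and without normalization between arrays Cxcl1 did not pass (-0.45).

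Resting cells changed between the times too. Under IgG, Cx3cl1 fell by 0.94 (1.91-fold, adjusted p = 0.000228), Cx3cr1 rose by 0.79 (1.73-fold, adjusted p = 0.000399), and Xcl1 fell by at least 1.13-fold (adjusted p = 0.0104). These are 3 of 6 genes, beside 46.8% of all genes tested. Cx3cl1 levels in resting cells at 16 h were 8.01, 7.40, 7.92 and 8.33, all below those at 2 h. Cx3cr1 levels were 8.58, 9.11, 8.72 and 8.52, all above those at 2 h. Cxcl2 differed by -0.44 (adjusted p = 0.125) and Cxcl16 by -0.40 (adjusted p = 0.0903). With the replicate number as a block their adjusted p-values were 0.00348 (range 0.00348 to 0.394) and 8.6e-06 (range 8.6e-06 to 0.246). Both also passed without resting 2 h replicate 2, at -0.64 and -0.52, and Cxcl2 without normalization between arrays, at -0.67. Slides 1, 2 and 4 gave -0.89, -1.42 and -0.62 for Cx3cl1 and 0.59, 1.18 and 0.56 for Cx3cr1. For Cxcl2 they gave -0.63, -1.32 and 0.34, which differ in sign. Agilent's processed signals gave -1.62 for Xcl1.

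At 16 h antigen still set the receptor apart. Cx3cr1 was the only one of the 6 genes called for the antigen effect in IgG-treated cells, beside 12.3% of all genes tested, and the only one in anti-TIM-3-treated cells, beside 19.2%. With IgG, activated cells had 7.74, 8.38, 7.74 and 7.64, all below the resting arrays, and the fall was 0.86 (1.81-fold, adjusted p = 0.00138). With anti-TIM-3 the levels were 8.83, 9.07, 8.91 and 8.50 in resting and 7.72, 8.15, 7.80 and 7.54 in activated cells, a fall of 1.03 (2.04-fold, adjusted p = 6.68e-05). Among 17100 genes these were the 12th and 30th lowest values. Slides 1 and 4 gave -0.98 and -0.52 with IgG and -1.17 and -0.90 with anti-TIM-3, and both calls held under all 17 alternatives. The dim second probe changed by -0.05 (adjusted p = 0.826) with IgG and by 0.01 (adjusted p = 0.93) with anti-TIM-3, and averaging both probes gave -0.45 and -0.51. Cx3cl1 differed by 0.43 with IgG (adjusted p = 0.121). It passed with the replicate number as a block (adjusted p = 0.00618, in a range of 0.00618 to 0.521), without activated 16 h replicate 2 (0.58) and without resting 16 h replicate 4 (0.56). Cxcl2 differed by 0.17 with IgG (adjusted p = 0.702), and by 0.34 with anti-TIM-3 (adjusted p = 0.259, or 0.0229 with the replicate number as a block, in a range of 0.0229 to 0.494). Xcl1 was higher by at least 1.13-fold with anti-TIM-3 but did not pass (adjusted p = 0.193). With Agilent's processed signals its value was 1.52 and passed (adjusted p = 0.000166, in a range of 0.000166 to 0.681).

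With the antibody in activated cells at 16 h, Cx3cl1 was again lower. The ratios of Cxcl2 and Xcl1 were small, but that of Xcl1, near background, depended on the processing. Cx3cl1 ratios were -0.53, -0.25, -0.38 and -0.31, and the mean of -0.37 (SE 0.05, 1.29-fold lower) passed the test (adjusted p = 1.82e-05). Cxcl16 fell, with ratios of -0.18, -0.12, -0.07 and -0.24 (mean -0.15, adjusted p = 0.0118). Cxcl2 rose by 0.13 (1.10-fold, adjusted p = 0.026), with ratios of 0.14, 0.20, 0.11 and 0.07. Xcl1 ratios were 0.26, 0.14, 0.27 and 0.07; it rose by at least 1.11-fold (mean 0.19, adjusted p = 0.0277) from an IgG signal not well above background on any array. These are 4 of 6 genes beside 30.1% of all genes tested. The calls of Cxcl2 and Xcl1 were lost without replicate 1 (0.13 and 0.16), without replicate 2 (0.11 and 0.20), without replicate 3 (0.14 and 0.16) and with the slide as a block (0.10 and 0.20). With Agilent's processed signals, which carry no added offset, the Xcl1 ratio was 1.40 and passed (adjusted p = 2.38e-05, in a range of 2.38e-05 to 0.527). Under median centring in place of loess it was -0.05 and did not pass. The Cx3cl1 call held in all of these but not when loess was replaced by median centring (-0.05), which moved the median of all genes to 0.39; relative to that median the value was -0.44. At this time 6 of 12 macrophage and dendritic cell markers fell and 2 rose with anti-TIM-3 (median -0.13), 2 of 5 neutrophil markers fell (median -0.23), and 8 of 11 mast cell markers rose and 1 fell (median 0.15). In resting cells at 16 h, 7 of 11 mast cell markers rose and 1 fell (median 0.39). There 1 of 12 macrophage and dendritic cell markers fell (median -0.03), as did 1 of 5 neutrophil markers (median -0.11). In the difference between activated and resting cells at 16 h the medians were -0.21 (mast cells), -0.18 (macrophages and dendritic cells) and 0 (neutrophils). The part of these cell types in the result was not tested.

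In resting cells at 16 h, Cx3cl1 and Cxcl16 fell slightly, 2 of 6 genes beside 21.6% of all genes tested. Cx3cl1 ratios were -0.08, -0.11, -0.26 and -0.21 (mean -0.17, SE 0.05, adjusted p = 0.0205). The call was lost without replicate 3 (-0.13) or replicate 4 (-0.15), and in a fit of these 4 arrays alone or with the slide as a block (-0.17 in both). Under median centring in place of loess it was 0.06, or -0.24 relative to the median of all genes. The mean Cx3cl1 ratio in resting cells was -0.14 at 2 h, and the times differed by -0.02 (limma adjusted p = 0.864). For a ratio this alike at both times, the antibody's effect and a dye bias of the probe cannot be told apart. Cxcl2 had a mean ratio of -0.04 (adjusted p = 0.567) and Cx3cr1 of 0.10 (adjusted p = 0.374). Cxcl1 and Xcl1 were not well above background in either channel on any array of this group, so no fold is given.

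Between the times, the antibody's effect in activated cells changed for Cxcl2 (-1.79, adjusted p = 1.9e-12), Xcl1 (-1.65, adjusted p = 7.92e-10) and Cx3cl1 (0.39, SE 0.07, adjusted p = 0.000463), counted as 16 h minus 2 h. These are 3 of 6 genes beside 17.2% of all genes tested. The Xcl1 value rests on a 16 h IgG signal above background on 0 of 4 arrays, so its size is not exact. Slide 3 gave -1.84, -1.62 and 0.37. With Agilent's processed signals the Xcl1 difference was -0.64 and did not pass; its ratios there were 2.05 at 2 h and 1.40 at 16 h. Cxcl1 differed by -0.24 (adjusted p = 0.0547), and by -0.36 without activated 2 h replicate 3, which passed. In resting cells none of the 6 genes changed between the times in its response to the antibody by limma's test, beside 0.281% of all genes tested; 0 of the 6 were at an unadjusted p under 0.05. The difference between activated and resting cells at 16 h passed for none of the 6 either, beside 8.53% of all genes tested, with 3 at an unadjusted p under 0.05. It was 0.17 for Cxcl2 (adjusted p = 0.0913) and -0.20 for Cx3cl1 (adjusted p = 0.0719). For Xcl1, near background at 16 h, it was 0.18 (adjusted p = 0.211). With Agilent's processed signals the Xcl1 difference was 1.46 and passed (adjusted p = 0.00132, in a range of 0.00132 to 0.393).

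Cxcl16 had the smallest span of condition means of the 6 genes, 0.56 on the log2 scale. Its IgG levels averaged 8.57 ± 0.32 in resting and 8.46 ± 0.25 in activated cells at 2 h, and 8.17 ± 0.28 and 8.27 ± 0.34 at 16 h, so neighbouring groups lay within each other's spread. Its ratio to IgG was a little below 0 on all 16 arrays, from -0.25 to -0.01, and passed the test in all 4 groups with means of -0.13, -0.12, -0.16 and -0.15. For a ratio this alike in all groups, the antibody's effect and a dye bias of the probe cannot be told apart. The call in resting cells at 2 h (adjusted p = 0.0491) was lost without any one of its arrays, with values of -0.14, -0.09, -0.15 and -0.15. In activated cells at 2 h it was lost without replicate 2 (-0.09), 3 or 4 (-0.12 in both). In resting cells at 16 h it was lost without replicate 1 (-0.14) or 3 (-0.15), and in activated cells at 16 h without replicate 1 (-0.14) or 4 (-0.12). Under median centring in place of loess, the 4 ratios were above 0, at 0.07, 0.11, 0.10 and 0.17, while the medians of all genes were 0.21, 0.22, 0.30 and 0.39; relative to these medians Cxcl16 was at -0.14, -0.12, -0.20 and -0.22. A second Cxcl16 probe gave mean ratios of -0.30, -0.13, 0.01 and -0.13 in the order resting 2 h, activated 2 h, resting 16 h and activated 16 h, none of which passed. Its ratios in resting cells at 2 h ranged from -0.87 to 0.19.

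Levels of Cxcl16 and Cxcl2 also differed by replicate number. The Cxcl16 IgG level in replicates 1 and 4 was above the group mean in all 4 groups, by 0.26 and 0.22 on average, and in replicates 2 and 3 it was below it in all 4, at -0.34 and -0.14. Cxcl2 deviated by 0.39, -0.38, -0.13 and 0.11 and Cx3cl1 by 0.08, -0.33, 0.03 and 0.22. Xcl1 was near background in 3 of the 4 groups, and in activated cells at 2 h it deviated by -0.08, 0.17, 0.04 and -0.13. Cx3cr1 was highest in replicate 2 (-0.02, 0.20, -0.07 and -0.11). The summed level of the macrophage and dendritic cell markers deviated by 0.43, -0.66, -0.13 and 0.36 in the same replicates, with Csf1r at 0.65, -1.04, -0.11 and 0.50 and Cd14 at 0.75, -0.97, -0.16 and 0.38. The neutrophil markers deviated by 0.40, -0.49, 0.11 and -0.02, and the mast cell markers by -0.15, 0.07, 0.00 and 0.09. The part of other cells in the levels of Cxcl16 and Cxcl2 was not tested.

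**Figure D4:**
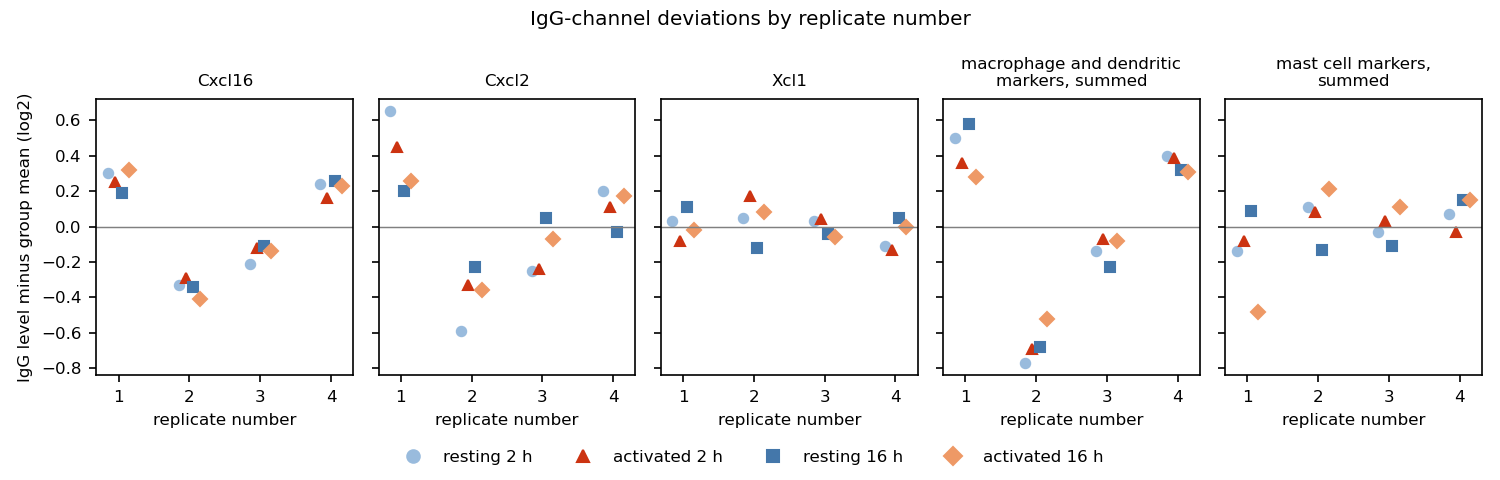
Deviation of the IgG (Cy3) log2 level from its group's mean (y axis) by replicate number (x axis) for Cxcl16, Cxcl2, Xcl1 and the summed macrophage and dendritic cell and mast cell markers; each point is 1 array of the group its symbol names. Cxcl16 is above its group mean in replicates 1 and 4 and below it in replicates 2 and 3 in all 4 groups, as is the sum of the macrophage and dendritic cell markers. Xcl1 was measured above background on all 4 arrays only in activated cells at 2 h, where it deviates by -0.08, 0.17, 0.04 and -0.13.

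Over the 32 channel values (16 arrays in 2 dyes), which share arrays and dyes, the genes most like each member by Pearson's r were named where the member's condition means spanned at least 1 on the log2 scale. For Cxcl2, which spanned 3.98, they were Ptgs2 (0.98), which encodes the inducible cyclooxygenase, the small Maf factor gene Maff (0.98), Ch25h (0.97), a cholesterol hydroxylase, Gch1 (0.97), the first enzyme of tetrahydrobiopterin synthesis, and the phosphatase gene Dusp2 (0.97). For Xcl1, which spanned 4.26, they were Il13, the receptor kinase gene Mst1r, Il2, Csf2 and Il3, all at 0.99 or above, and 4 of these 5 encode cytokines. Xcl1 was well above background on all 4 arrays only in activated cells at 2 h, so these r values rest largely on that group. For Cx3cl1 (span 2.18) they were Arhgef40 (0.98), Tmem131l (0.96), Pmaip1 (0.95), Rap2a (0.95) and Dok7 (0.94). Of these, Arhgef40, Tmem131l, Pmaip1 and Rap2a rose with antigen at 2 h under IgG (0.79, 1.08, 1.11 and 0.57) and fell with anti-TIM-3 in activated cells at 2 h (-0.35, -0.38, -0.27 and -0.40). Dok7 rose with antigen (1.10) and had a ratio of -0.10 (adjusted p = 0.29). For Cx3cr1 (span 1.88) they were Ube2c (0.95), Aspm (0.95), Xxylt1 (0.94), Ccnb1 (0.94) and Lmf2 (0.94), of which Ube2c, Aspm and the cyclin gene Ccnb1 act in mitosis. Cxcl1 and Cxcl16 spanned 0.82 and 0.56 and were not matched. Among the members themselves, r was 0.97 for Cxcl2 and Xcl1, 0.85 for Cxcl1 and Cxcl2 and -0.84 for Cx3cl1 and Cx3cr1. The r of Cxcl2 and Xcl1 also rests largely on activated cells at 2 h.

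Genes related to the members by family or function were taken as 5 lists. They are described by their counts beside the share of all genes called in each comparison (given above) and the median change of all genes. That median was 0.00 for the antibody at 2 h and 0.01 at 16 h in activated cells. Of 12 further CXC and platelet chemokine genes, 7 were tested. With antigen under IgG at 2 h only Cxcl3, a neutrophil attractant like Cxcl2, was called, beside 42.9% of all genes tested. It rose by 1.88 (SE 0.53, 3.67-fold, adjusted p = 0.00829), and the list's median was 0.29 where that of all genes was -0.04. Its levels averaged 8.49 ± 0.93 in resting and 10.36 ± 0.90 in activated cells at 2 h. At 2 h the Cxcl3 ratio of anti-TIM-3 over IgG was 0.37 in resting cells (adjusted p = 4.68e-05) and 0.36 in activated cells (adjusted p = 1.42e-05). No gene of this list passed the test of that difference. For Cxcl3, an effect of the antibody and a dye bias of the probe cannot be told apart. In activated cells at 2 h, 2 of the 7 rose, Cxcl3 and Cxcl11 (0.18, adjusted p = 0.0175), and none fell, with a median of 0.15. The share of all genes tested was 33.3%. At 16 h in activated cells, 1 rose and 3 fell, beside 30.1%. Those that fell were the platelet chemokines Ppbp (-0.64, adjusted p = 6.95e-05) and Pf4 (-0.31, adjusted p = 0.00193) and the interferon-induced Cxcl10 (-0.50, adjusted p = 0.00351).

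Of 12 further receptor genes, 8 were tested. Not all of the 12 are receptors of the chemokines followed here, and Ackr2 is known mainly for CC chemokines. With anti-TIM-3 in activated cells at 2 h, 5 rose and none fell (median 0.17), beside 33.3% of all genes tested. The changes were small, led by Cxcr4, the CXCL12 receptor (0.31, adjusted p = 0.00022), the decoy receptor Ackr2 (0.30, adjusted p = 4.58e-05) and Cxcr5, the CXCL13 receptor (0.22, adjusted p = 0.000337). In the difference between activated and resting cells at 2 h, where an equal dye bias cancels, 2 rose and none fell, beside 5.58%. With antigen under IgG at 2 h, 4 rose and 1 fell, beside 42.9% of all genes tested. Cxcr5 rose by 0.95 (adjusted p = 1.52e-09) and Ackr2 by 0.86 (adjusted p = 1.71e-05), and Cxcr4 fell by 0.67 (adjusted p = 4.41e-05).

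The 14 genes listed around the shedding and binding of membrane chemokines, chosen for Cx3cl1 and Cxcl16, were all tested. They include protease inhibitors and integrin chains as well as proteases. In activated cells at 2 h, 7 were higher and 2 lower with anti-TIM-3 (median 0.10), beside 33.3% of all genes tested. The largest changes were in the metalloprotease inhibitor genes Timp3 (0.82, adjusted p = 1.97e-09) and Timp1 (0.49, adjusted p = 5.54e-07), and in Adam10, a protease known to cut both chemokines (0.57, adjusted p = 0.000152). In the difference between activated and resting cells at 2 h, where an equal dye bias cancels, 4 rose and none fell, beside 5.58%. Antigen under IgG at 2 h raised 7 and lowered 2 (median 0.20), beside 42.9% of all genes tested. Timp3 was at 1.28 (adjusted p = 5.88e-10), Itgav at 1.01 (adjusted p = 3.22e-07) and Timp1 at 0.81 (adjusted p = 6.41e-05). At 16 h in activated cells, 3 were higher and 4 lower with anti-TIM-3, beside 30.1% of all genes tested. Among these were Timp1 (0.76, adjusted p = 4.47e-09), the integrin gene Itgb3 (0.71, adjusted p = 6.99e-09) and Adam8 (-0.36, adjusted p = 6.2e-06). In the difference between activated and resting cells at 16 h, 3 rose and 1 fell, beside 8.53%.

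Of 18 transcription factor and inhibitor genes known from inducible chemokine promoters, all tested, antigen under IgG at 2 h raised 10 and lowered 3 (median 0.30). The share of all genes tested was 42.9%. Nfkbia, the gene of the NF-kappaB inhibitor and itself a target, rose by 1.69 (adjusted p = 2.3e-08), Relb by 1.54 (adjusted p = 2.86e-10) and Fosb by 1.36 (adjusted p = 1.96e-08). With the antibody in activated cells at 2 h, 8 rose and 2 fell (median 0.18), beside 33.3% of all genes tested. The largest changes were in Egr1 (1.30, adjusted p = 5.99e-08), Nfkbiz (1.28, adjusted p = 9.78e-11) and Fosb (1.14, adjusted p = 6.8e-10). In the difference between activated and resting cells at 2 h, where an equal dye bias cancels, 7 rose and 1 fell, beside 5.58%. In resting cells at 2 h, 3 of the 18 rose, near the share of 14.0% of all genes tested. They were Egr1 (0.61, adjusted p = 0.000644), Fos (0.49, adjusted p = 0.000624) and Junb (0.45, adjusted p = 0.000177). At 16 h in activated cells 1 rose and 3 fell with the antibody, beside 30.1% of all genes tested. Those that fell were Egr1 (-0.65, adjusted p = 0.000393), Cebpb (-0.46, adjusted p = 0.00365) and Jun (-0.39, adjusted p = 1.09e-06). In the difference between activated and resting cells at 16 h, 2 rose and 3 fell, beside 8.53%.

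Among 9 regulators of the stability of chemokine messages, 4 were higher and 2 lower with anti-TIM-3 in activated cells at 2 h (median 0.02). The share of all genes tested was 33.3%. Zfp36l1, which promotes decay of AU-rich messages, rose by 0.49 (adjusted p = 0.000505), and Zc3h12a, the gene of the endonuclease Regnase-1, by 0.42 (adjusted p = 1.64e-05). Traf3ip2, an adaptor of IL-17 signalling, fell by 0.20 (adjusted p = 0.00494). In the difference between activated and resting cells at 2 h, where an equal dye bias cancels, 1 rose and none fell, beside 5.58%. Antigen under IgG at 2 h raised Rc3h1 (0.32, adjusted p = 0.0011) and lowered Zfp36l2 (-0.26, adjusted p = 0.00434).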

How the data were processed

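RNA of anti-TIM-3-treated (Cy5) and IgG-treated cells (Cy3) was set side by side on two-colour Agilent arrays, 4 per group. The deposited scanner files give linear intensities for each spot, read by Agilent Feature Extraction 9.1.3.1 per the file headers (version 9 per the submitters' processing notes), after version 5.5 of the dual-color protocol per the labels. The deposited value table holds the log10 ratio of processed Cy5 over Cy3 (largest difference from the scanner files 0; every column's median 0), so its scale and direction are known.

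Log2 values were computed from the deposited mean and background intensities with limma 3.58.1 in R 4.3.3, reading files with data.table (version 1.17.8): normexp with an offset of 50, loess within arrays (control and outlier spots at weight 0) and Aquantile between arrays for single-channel levels. Of 45018 spots per array, 1639 were controls. Probes stayed if, in some group, 3 or more of the 4 arrays had them well above background in Cy3 or Cy5, and each gene is its brightest such probe. Names came from RefSeq accessions (22951 probes), symbols (6659), older symbols (3109) or the file (8455). Outlier spots took out 597 of 273616 gene values, none of them a member's.

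One lmFit and eBayes model per scale (ratio, Cy3, Cy5) of all 16 arrays gave 14 comparisons, two-sided, with Benjamini-Hochberg adjustment over all genes tested. Dye-channel comparisons run across arrays. A fold is a bound ("at least") where all arrays of the dimmer group lacked a signal above background; the dimmer level is then, per array, the higher of the gene's signal and the lowest signal that counts as above background. Members and lists were chosen with earlier results of these data known. Every member was tested in every comparison, and each one that passed is reported. A member whose value in a comparison is not printed did not pass there. Also printed are at most the 3 called genes of largest change from each list and the 5 genes most like each member that spans at least 1. Only the model fit was tried on simulated data, drawn as independent normal values for each gene. Those data held no intensities, dye bias or shared deviations of replicates, so the earlier processing steps were not tested.

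Same-numbered replicates of different groups deviated together in the antigen effect with IgG (correlations of 0.18 to 0.48 at 2 h and 0.25 to 0.67 at 16 h), in the antigen effect with anti-TIM-3 at 16 h (0.23 to 0.54) and in both comparisons of times (0.22 to 0.49 in resting and 0.13 to 0.60 in activated cells). There the numbers pair the samples, a pairing found in the data and not stated in the labels. The lowest correlation was 0.07 for the antigen effect with anti-TIM-3 at 2 h, and the ratios were not paired. Alternatives were Agilent's processed signals, an offset of 16, median centring, no normalization between arrays, no filter, mean of probes, compared arrays only, slide as a block, replicate block and leaving out each array. The 4 slides of 4 arrays, each with 3 groups, were taken as possible batches. The main models held no term for slide or replicate number. Slide entered only as an alternative and in the differences within slides. Arrays of activated cells at 2 h lay on slides 2 and 3 only, so group and slide are partly mixed.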

Additional observations from a re-analysis of the deposited data

Results flagged for a closer look

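The antibody's effect differed between groups for 3 genes by limma's test of the difference. In activated minus resting cells at 2 h the differences were 1.92 for Cxcl2, 1.74 for Xcl1 and -0.62 for Cx3cl1. Between the times in activated cells (16 h minus 2 h) they were -1.79 for Cxcl2, -1.65 for Xcl1 and 0.39 for Cx3cl1. The Xcl1 value is not exact, since its IgG signal at 16 h was above background on 0 of 4 arrays, and with Agilent's processed signals it was -0.64 and did not pass.

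Among 72 sets of 4 arrays, 6 had 1 array far from the other 3, where chance gives about 1 in 20. The Cxcl16 ratio of resting 16 h replicate 4 was -0.01, with the others between -0.23 and -0.20. Xcl1 had an IgG level of 6.16 in resting 2 h replicate 4 (others 6.30 to 6.32), an anti-TIM-3 level of 6.16 in resting 16 h replicate 1 (others 6.0 to 6.02) and one of 6.13 in activated 16 h replicate 4 (others 6.27 to 6.30), all near background. Cx3cr1 had an IgG level of 8.38 in activated 16 h replicate 2 (others 7.64 to 7.74) and an anti-TIM-3 level of 7.20 in activated 2 h replicate 1 (others 6.84 to 6.87).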

How the results depend on the processing

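Of the members' values under the alternatives, 1254 kept their side of the threshold with no change of sign in a called value, 43 lost the call, 27 gained it and 8 changed sign where the main or the alternative value was called. Values not called changed sign too (Cx3cl1 in resting cells at 2 h was 0.09 under median centring). All 8 came from median centring in place of loess: Cxcl16 at 0.07 (resting 2 h), 0.11 (activated 2 h), 0.10 (resting 16 h) and 0.17 (activated 16 h), Xcl1 at -0.21 and -0.05 and Cx3cl1 at 0.06 (Xcl1 in resting and activated cells at 16 h, Cx3cl1 in resting cells at 16 h), and Cx3cr1 at 0.19 in activated cells at 16 h. That setting shifted the median of all genes by 0.21 to 0.38 in the 4 ratios and by at most 0.09 in their differences. The ratios of Cxcl2, Xcl1 and Cx3cl1 in activated cells at 2 h were called under all 13 alternatives, and the antigen effects of Cxcl2, Xcl1, Cx3cl1 and Cx3cr1 with IgG at 2 h under all 17.

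Counts of the 6 members called that moved by over 1.5 times, or to or from 0, were these. For the antibody in resting cells at 2 h the count was 0 in place of 1 with no filter, compared arrays only, slide as a block, replicate block, an offset of 16 and median centring. In resting cells at 16 h it was 1, 0 and 1 in place of 2 (mean of probes, compared arrays only, slide as a block), and in activated cells at 16 h 2 in place of 4 (slide as a block). For the difference at 16 h between activated and resting cells it was 2 (processed signals), 1 (offset of 16) and 1 (median centring) in place of 0. The antigen effect with anti-TIM-3 had 2 in place of 1 at 16 h (processed signals; replicate block) and 3 in place of 5 at 2 h (no normalization between arrays). The replicate block gave 2 in place of 1 for the antigen effect with IgG at 16 h and 5 in place of 3 for the times in resting cells; it changed no calls other than these and those printed beside their results. Leaving out 1 array at a time, the counts for the antibody ranged from 0 to 0 (resting 2 h), 4 to 5 (activated 2 h), 0 to 2 (resting 16 h) and 1 to 3 (activated 16 h). For activated minus resting they ranged from 3 to 4 at 2 h and 0 to 1 at 16 h, and for the times from 0 to 0 (resting) and 3 to 4 (activated). Antigen counts ranged from 4 to 5 (2 h) and 1 to 2 (16 h) with IgG, and from 4 to 5 and 1 to 1 with anti-TIM-3. Counts between the times with IgG ranged from 3 to 5 (resting) and 5 to 5 (activated). The cause of these moves was not tested. Signals near background limit Cxcl1 and Xcl1 outside activated cells at 2 h.

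Over all genes, the number called also moved: from 5692 in activated cells at 2 h, the alternatives gave 3859 to 11087, and from 2391 in resting cells at 2 h, 372 to 10489. Under median centring 92.8% of calls in activated cells at 2 h were higher with anti-TIM-3.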
